A study of Mus musculus with 25 samples.

Results

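Glutathione S-transferases attach the tripeptide glutathione to reactive, electrophilic compounds so that these can be exported from the cell, and the liver is one of their richest sources. The cytosolic enzymes fall into classes by sequence, and a functional enzyme is a dimer of subunits of the same class. A total of 10 of the 41388 genes in the files are described here: Gstp1 and Gstp2 of class pi, Gstm1, Gstm2, Gstm3, Gstm4 and Gstm6 of class mu, and Gsta2, Gsta3 and Gsta4 of class alpha. They were chosen by name with earlier results of these data known, among them that Gstp2 was one of the largest falls between WD LKO NAMPT and WD WT NAMPT. The members' values in that comparison are therefore given as a description, without a test. Another 17 genes of the wider family were listed for context, and 14 of them passed the filter on low counts, as did all 10 members.

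The livers came from male C57B/6J mice, aged 20 weeks per the labels, in a study of 12 weeks that asked how SIRT1, an NAD-dependent deacetylase, shapes the effect of NAMPT, the enzyme that makes an NAD precursor. Every mouse carried loxP-flanked Sirt1 and received an AAV8 virus by tail vein, either an empty vector (EV) or NAMPT, under the thyroxine binding globulin promoter, which is active in hepatocytes. WT mice lacked Cre, and LKO littermates carried Cre under the Albumin promoter. There were 3 chow WT EV mice and, on Western diet (WD, Teklad TD88137), 6 WT EV, 6 WT NAMPT, 5 LKO EV and 5 LKO NAMPT mice, each giving 1 library.

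Libraries held 20166175 to 32937326 gene counts. Levels are given as CPM, library counts scaled to a common depth by the TMM method, and different genes are compared only per length (RPKM). Sirt1 stood at 8.86 ± 0.57 CPM in the 6 WD WT EV libraries and at 8.57 ± 1.34 CPM (means ± SD) in the 5 WD LKO EV libraries. With the NAMPT vector it stood at 8.58 ± 0.62 CPM in WT and 9.82 ± 1.36 CPM in LKO, so the libraries labelled LKO did not show fewer Sirt1 reads over the gene, and every genotype statement rests on the labels. Nampt had a mean ± SD of 47.4 ± 6.46 CPM without and 59.5 ± 10.6 CPM with the NAMPT vector in WT (n = 6 each). In LKO it had 56.1 ± 12.0 CPM without and 79.9 ± 28.4 CPM with that vector (n = 5 each), so Nampt levels also differed between the genotypes. The summed hepatocyte markers, 9 genes among them albumin, lay between 61208 and 97860 CPM in every library. Where the scaling used library size alone, the median log2 fold change of all genes moved to 0.16 for NAMPT in WT and to -0.12 for genotype under NAMPT. Genes called, meaning an adjusted p-value by limma of 0.05 or less, then split into 2010 higher and 271 lower in place of 1079 and 811, and into 204 and 636 in place of 588 and 532. For diet they split into 1053 and 2175 in place of 1414 and 1687.

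Gstp1 (ENSMUSG00000060803, GRCm38 chr19:4035407-4037921) and Gstp2 (ENSMUSG00000038155, chr19:4040285-4042236) lie on the minus strand of chromosome 19, 2363 bases apart, and Gstp3 (ENSMUSG00000058216, chr19:4057477-4059446) follows upstream. The 5 mu genes form a cluster on the minus strand of chromosome 3, from Gstm6 (chr3:107938847-107943749) to Gstm4 (chr3:108040408-108044894). Gsta4 (chr9:78191966-78209348) and Gsta2 (chr9:78331018-78355788) lie on chromosome 9, and Gsta3 lies apart on chromosome 1 (chr1:21240589-21265661). All are protein-coding genes whose exons overlap those of no other gene. The coding sequences of Gstp1 and Gstp2 were 98.1% identical (618 of 630 positions), against 73.1% for Gstp1 and Gstp3. Their promoters were less alike: the 250 bases before the start were 78.1% identical between Gstp1 and Gstp2 and 50.0% between Gstp1 and Gstp3. These sequences are shown, from RefSeq (GRCm38.p6), because Gstp1 and Gstp2 fell together on Western diet while Gstp3 did not fall with them. Capitals mark TGAGTCA, the AP-1 site, on either strand, a motif that was searched after the sequences had been read.
Gstp1 (chr19:4037913-4038162, minus strand): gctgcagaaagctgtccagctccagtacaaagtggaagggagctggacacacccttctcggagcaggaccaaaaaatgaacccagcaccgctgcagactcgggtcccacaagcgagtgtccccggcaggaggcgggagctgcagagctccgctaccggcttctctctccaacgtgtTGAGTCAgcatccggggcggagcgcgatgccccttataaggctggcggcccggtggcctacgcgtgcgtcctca
Gstp2 (chr19:4042222-4042471, minus strand): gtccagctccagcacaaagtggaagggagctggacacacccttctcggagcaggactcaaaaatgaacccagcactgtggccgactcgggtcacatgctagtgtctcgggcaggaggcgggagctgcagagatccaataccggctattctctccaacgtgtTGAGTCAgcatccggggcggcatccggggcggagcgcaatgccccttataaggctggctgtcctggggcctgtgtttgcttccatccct
Gstp3 (chr19:4059448-4059697, minus strand): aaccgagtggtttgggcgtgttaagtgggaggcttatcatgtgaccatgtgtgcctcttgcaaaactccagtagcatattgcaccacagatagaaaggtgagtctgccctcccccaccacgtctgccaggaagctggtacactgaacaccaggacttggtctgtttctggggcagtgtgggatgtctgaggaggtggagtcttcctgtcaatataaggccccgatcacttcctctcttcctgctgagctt

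The AP-1 letters stood 74 bases before the start in Gstp1 (position -74) and 89 before it in Gstp2 (position -89), and were not found in the Gstp3 window. No other member with a promoter entry held them, and Gsta2 and Gsta3, also called lower on Western diet, were among those without. In the wider family they also stood in Gstm5 (position -176) and Mgst2 (position -52). Gstm5 was not called under diet (log2 fold change -0.11, adjusted p by limma 0.636). The AP-1 letters occurred in 5.2% of the 32851 promoter windows of 300 bases (250 before to 50 after the start). The core of the antioxidant response element, TGACNNNGC, occurred in 12.4% of windows, and TTCNNNGAA, the palindrome bound by STAT factors, in 8.3%. Among the members with a promoter entry, TGACNNNGC was found only in Gsta3, at position -121, and TTCNNNGAA only in 1 of the 3 windows of Gstm6, at position -128. In the wider family TGACNNNGC was also found in Gstm5 (position -42) and in 1 window each of Mgst1 (position -56) and Gstm7 (position -129). Read on, the AP-1 sites of Gstp1 and Gstp2 are TGAGTCAGC. This has G where TGACNNNGC has its first C, and was not counted as a match. The Gsta3 sequence is shown with TGACNNNGC in capitals because Gsta3 was the only member called with the NAMPT vector in WT.
Gsta3 (chr1:21240335-21240584, plus strand): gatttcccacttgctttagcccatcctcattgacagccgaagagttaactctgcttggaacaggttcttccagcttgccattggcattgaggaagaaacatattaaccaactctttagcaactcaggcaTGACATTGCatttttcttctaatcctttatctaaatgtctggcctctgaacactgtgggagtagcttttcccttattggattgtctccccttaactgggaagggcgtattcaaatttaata

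Near-identical genes limit what a 50-base read can tell apart, since only uniquely aligned reads were counted. Of the 50-base windows of the annotated transcripts, 66.3% of those of Gstp1 and 45.7% of those of Gstp2 occurred in no other gene, and 33.7% and 49.1% were shared between both. Gsta2 had 50.2% such windows and shared 36.0% with Gsta1, a gene 97.6% identical to it in coding sequence. Gstm3 had 71.2% and Gstm1 81.1%, whereas Gstm2, Gstm4, Gstm6, Gsta3 and Gsta4 had between 94.0% and 100.0%. Levels of Gstp1, Gstp2, Gsta2, Gstm1 and Gstm3 are therefore based on part of their transcripts, and a read with a sequencing error can pass from one to its relative.

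**Figure D1:**
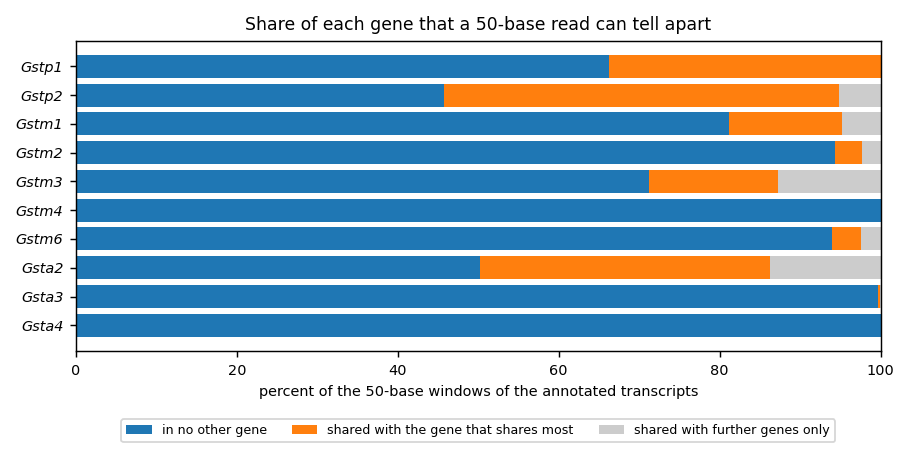
Percent of the 50-base windows of each member's annotated transcripts (horizontal axis) that occur in no other gene (blue), that are shared with the gene sharing most windows (orange) or that are shared with further genes only (grey). Gstp2, at 45.7%, and Gsta2, at 50.2%, had the smallest blue bars, and Gstm4 and Gsta4 were blue throughout at 100.0%.

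Per length, Gstm1 was the most abundant member, at a mean of 1239 RPKM over the 25 libraries, followed by Gstp1 at 803 RPKM and Gsta3 at 246 RPKM. Gstm3 followed at 139 RPKM and Gstm2 at 77.5 RPKM, and the remaining 5 members lay between 20.4 RPKM (Gsta2) and 45.7 RPKM (Gsta4). Over the 25 libraries the membrane-bound enzyme Mgst1, which is no member, had a mean above all members, at 1719 RPKM. In chow WT EV the order was another, with means of 1857 RPKM for Gstp1, 1392 RPKM for Mgst1 and 1283 RPKM for Gstm1. Single members varied by between 2.30-fold (Gstm6) and 14.8-fold (Gstm3) from the lowest to the highest library. The lowest member count in a single library was 175, for Gstp2.

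**Figure D2:**
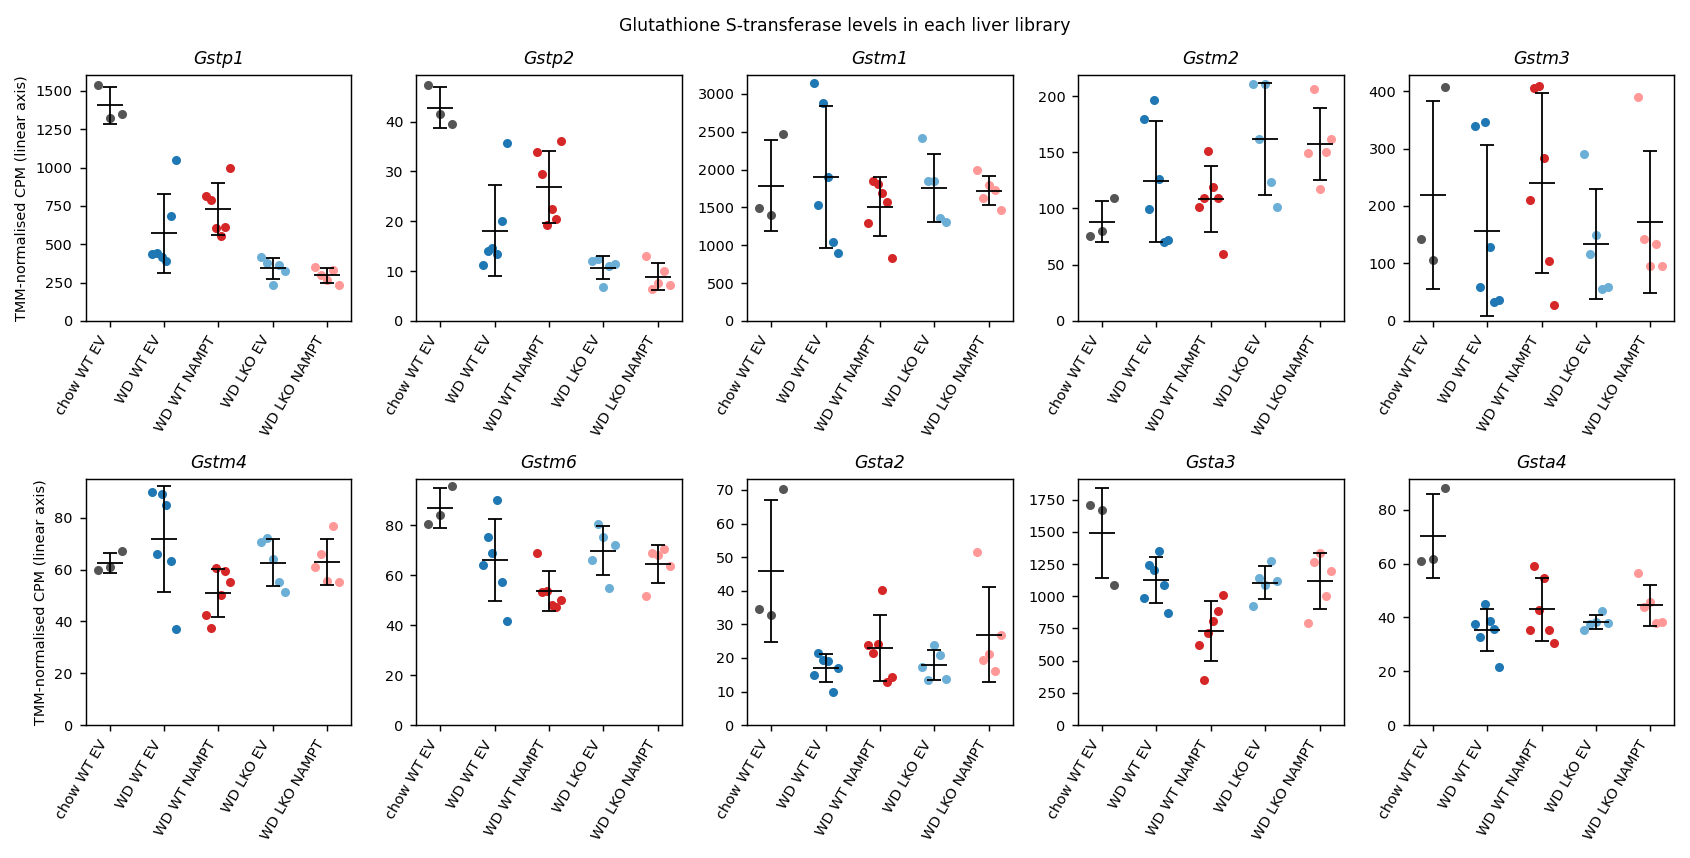
TMM-normalised CPM of each member (vertical axis, linear, from 0) in every library (points) of the 5 groups, with the mean and SD of each group in black. Gstp1 and Gstp2 were highest in the 3 chow libraries and lowest in both LKO groups, Gstm3 spread from 27.6 to 409 CPM within WD WT NAMPT alone, and Gsta3 was lowest in WD WT NAMPT.

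Western diet, compared with chow in WT EV livers, was the condition under which most members changed. A total of 5 of the 10 members were called at an adjusted p-value (limma, Benjamini-Hochberg over all 14065 genes) of 0.05 or less, all of them lower on Western diet, where 12.0% of all genes were called lower and 10.1% higher. Both pi genes and all 3 alpha genes fell, and 0 of the 5 mu genes were called. The members' median log2 fold change was -0.51, against -0.0047 for all genes. In 4 of them, Gstp1, Gstp2, Gsta2 and Gsta4, every Western diet library lay below every chow library, which held for 8.45% of all genes. The 3101 genes called became 952 without chow replicate 1 and 843 without chow replicate 2. In bulk liver, fewer cells of a type and less RNA per cell cannot be told apart.

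Gstp1, whose product conjugates many electrophiles and is known to be more abundant in male than in female mouse liver, had 1541, 1324 and 1351 CPM in the chow livers. On Western diet the 6 WT EV libraries ran from 392 over a median of 439 to 1049 CPM. The highest of them, replicate 8, stood far above the others and still below every chow library. The log2 fold change was -1.46 ± 0.21 (SE), a 2.76-fold lower level, with an adjusted p-value by limma of 3.54e-05. Gstp2, its near-identical neighbour, had 47.4, 41.5 and 39.5 CPM on chow and ran from 11.1 over a median of 14.3 to 35.7 CPM in WD WT EV. Its log2 fold change was -1.45 ± 0.21 (SE, adjusted p by limma 2.53e-05), which differed from that of Gstp1 by less than the SE. Without replicate 8 of WD WT EV the values were -1.63 for Gstp1 and -1.62 for Gstp2. The third pi gene, Gstp3, lay between 15.4 and 18.1 CPM on chow and between 19.05 and 26.5 CPM in WD WT EV. Its value of 0.39 ± 0.15 on the log2 scale (SE) was not called (adjusted p by limma 0.0563).

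In class alpha, Gsta4, which conjugates the lipid peroxidation product 4-hydroxynonenal, had 60.8, 61.7 and 88.1 CPM on chow and 21.7 to 44.9 CPM (median 36.8) in WD WT EV. No libraries overlapped, and the log2 fold change was -0.90 ± 0.15 (SE, adjusted p by limma 0.00015). Gsta2 had 34.4, 32.8 and 70.3 CPM on chow and 9.96 to 21.5 CPM (median 18.01) in WD WT EV. Chow replicate 3 was the highest, and the log2 fold change was -1.09 ± 0.28 (SE, adjusted p by limma 0.00786), or -0.96 without that library. Gsta3, which in mice inactivates the epoxide of aflatoxin, had 1709, 1669 and 1086 CPM on chow against 871 to 1355 CPM (median 1146) in WD WT EV, so that these groups overlapped. Its log2 fold change was -0.49 ± 0.16 (SE, adjusted p by limma 0.0291). That call was lost in 5 of 10 other settings, among them the edgeR quasi-likelihood test (adjusted p 0.283), DESeq2 (adjusted p 0.259) and 2 surrogate variables (-0.24, adjusted p by limma 0.209). It was also lost in 4 of 9 fits without a library. These were the fits without chow replicate 1 (-0.25, adjusted p by limma 0.578) or 2 (-0.26, adjusted p by limma 0.579), and without WD WT EV replicate 1 (adjusted p by limma 0.0556) or 8 (adjusted p by limma 0.0524).

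Without adjustment, 7 of the 10 members and 4942 of the 14065 genes had a p-value under 0.05 for diet. The mu genes ranged from a log2 fold change of -0.52 ± 0.60 (SE) for Gstm3 to 0.49 ± 0.24 (SE) for Gstm2 under the same diet comparison. Gstm6 had the lowest adjusted p-value among them, 0.0747 by limma, at -0.34 ± 0.13 (SE). Gstm1, the main mu subunit of the liver, had a mean ± SD of 1789 ± 597 CPM on chow (n = 3) and 1898 ± 936 CPM in WD WT EV (n = 6), and the 95% interval of its log2 fold change ran from -0.32 to 0.64.

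**Figure D3:**
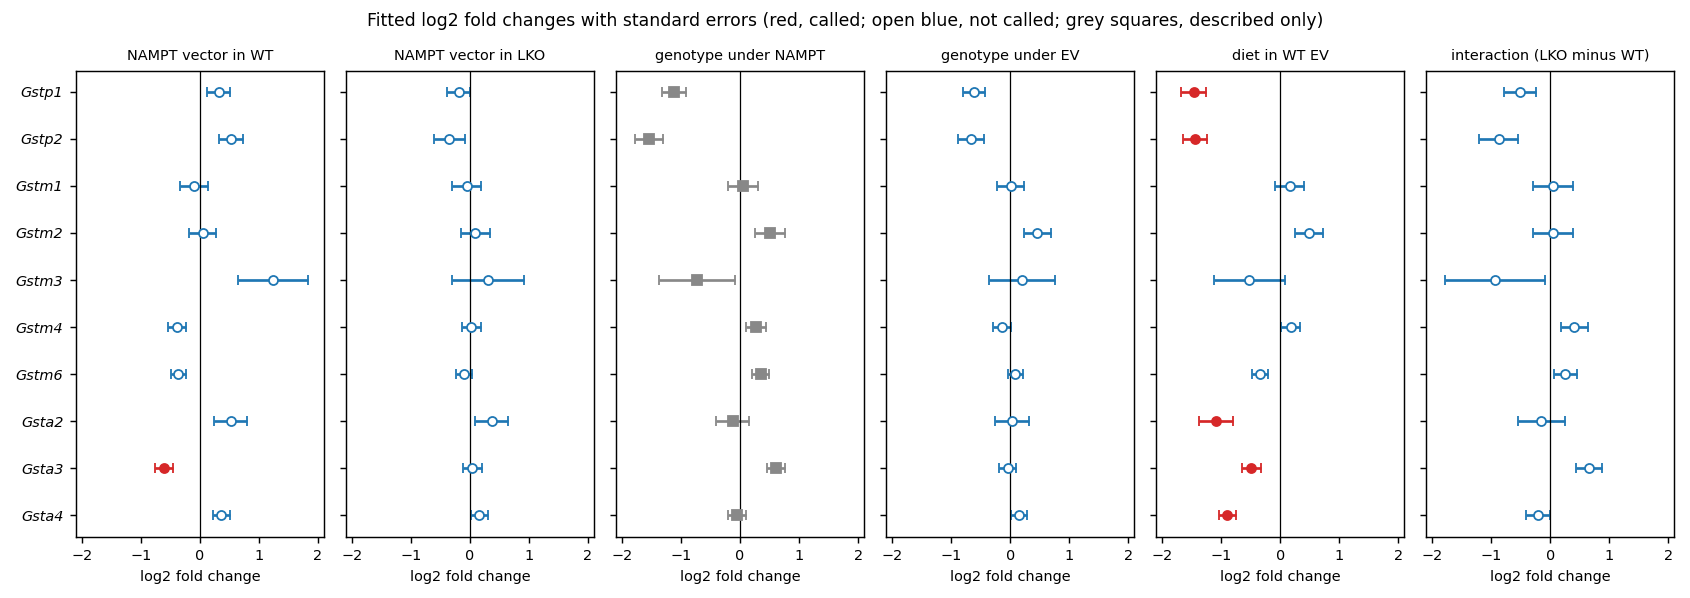
Log2 fold change of each member with its SE (horizontal axis) in the 6 comparisons, from the limma fit of all 25 libraries. Filled red points were called at an adjusted p-value of 0.05 or less, open blue points were not, and grey squares belong to the comparison that is described without a test. Under diet both pi and all 3 alpha genes are red and to the left of 0, and under the NAMPT vector in WT only Gsta3 is red, at -0.61.

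The NAMPT vector in WT livers on Western diet addresses the effect of NAMPT where SIRT1 was left intact. Gsta3 was the only one of the 10 members called, and it fell. Of all genes 5.77% were called lower and 7.67% higher. These 1890 genes became 132 without WD WT NAMPT replicate 3, 291 without WD WT EV replicate 2, 192 without quality weights and 68 with 2 surrogate variables. The members' median log2 fold change was 0.18, against 0.0041 for all genes, and 6 members had an unadjusted p-value under 0.05, as did 4260 of the 14065 genes. Gsta3 had 871 to 1355 CPM (median 1146) in WD WT EV and 348 to 1013 CPM (median 762) in WD WT NAMPT. The lowest value belonged to replicate 2, and the groups overlapped. The log2 fold change was -0.61 ± 0.15 (SE), a 1.53-fold lower level, with an adjusted p-value by limma of 0.0139. Without replicate 2 it was -0.51. The call was lost in 4 of 10 other settings, among them the edgeR quasi-likelihood test (-0.62, adjusted p 0.0663) and 2 surrogate variables (-0.37, adjusted p by limma 0.152). It was also lost in 2 of 12 fits without a library, those without WD WT EV replicate 2 (adjusted p by limma 0.0584) or WD WT NAMPT replicate 3 (adjusted p by limma 0.0675).

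The pi genes had positive values in the same comparison. It shares the WD WT NAMPT libraries with the comparison in which Gstp2 was known, so the pi values and calls here are a description. Gstp1 ran from 392 over a median of 439 to 1049 CPM in WD WT EV and from 552 over a median of 698 to 998 CPM in WD WT NAMPT, or 0.32 ± 0.20 on the log2 scale (SE, adjusted p by limma 0.285). For Gstp2 the values were 11.1 to 35.7 CPM (median 14.3) and 19.2 to 36.0 CPM (median 25.9), and the log2 fold change was 0.53 ± 0.20 (SE, adjusted p by limma 0.0831). Both groups overlapped because of WD WT EV replicates 7 and 8. Gstp2 was called when replicate 8 of WD WT EV was left out (0.70, adjusted p by limma 0.0178) and with library size alone (0.67, adjusted p by limma 0.0339), and Gstp1 was called in neither. Gstm4 (-0.39 ± 0.16 SE, adjusted p by limma 0.0924) and Gstm6 (-0.37 ± 0.13 SE, adjusted p by limma 0.0602) had negative values. Gsta4 (0.36 ± 0.14 SE, adjusted p by limma 0.0889) and Gsta2 (0.52 ± 0.28 SE, adjusted p by limma 0.208) had positive ones. Gstm3 had the largest value, 1.23 ± 0.60 (SE, adjusted p by limma 0.164).

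Among the 14 other family genes tested, 4 fell and 1 rose with NAMPT in WT. Gstt3, of the theta class, went from a mean of 33.7 CPM (SD 9.99) to 15.5 CPM (SD 5.78) over 6 libraries each. That is -1.19 ± 0.21 on the log2 scale (SE, adjusted p by limma 0.00506). Gstt1, also of class theta, went from 243 CPM (SD 37.7) to 158 CPM (SD 40.4), or -0.59 ± 0.11 (SE, adjusted p by limma 0.00754). Gstt1 and Gstt3 were called in every one of the 10 other settings and 12 fits that left out a library. The remaining theta gene tested, Gstt2, was at 0.07 (adjusted p by limma 0.818) and was not called. Mgst1 (-0.60 ± 0.16 SE, adjusted p by limma 0.0188) and Gstk1, found in mitochondria and peroxisomes (-0.39 ± 0.11 SE, adjusted p by limma 0.0229), also fell. Hpgds, which makes prostaglandin D2, rose by 1.27 ± 0.35 (SE, adjusted p by limma 0.0219) on the log2 scale from a mean of 1.25 to 2.80 CPM. Calls of Mgst1, Gstk1 and Hpgds were lost in 7, 6 and 7 of the 10 other settings, and each in 4 of 12 fits without a library. Among these settings was the edgeR quasi-likelihood test (adjusted p 0.167, 0.0801 and 0.0986). With 2 surrogate variables their values were -0.15, -0.18 and 0.24. Gstt3 shares 524 exonic bases with Gm20441 on the same strand.

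Markers of other liver cells moved in the same comparison. Of 14 macrophage markers 10 rose and 0 fell, and their summed level ran from 495 to 709 CPM in WD WT EV and from 465 to 1475 CPM in WD WT NAMPT. Of 12 stellate cell markers 7 rose and 0 fell, with sums of 352 to 576 and 361 to 910 CPM, and 2 of 7 neutrophil markers tested rose. Of 8 lymphocyte markers tested 1 rose, of 10 endothelial markers 1 rose and 2 fell, and of 9 cholangiocyte and 9 hepatocyte markers tested 0 were called. Of 10 pericentral hepatocyte genes 3 fell and 0 rose, and their sum had a median of 9014 CPM in WD WT EV and 4696 CPM in WD WT NAMPT. Of 10 periportal genes 1 rose. The lists' median log2 fold changes were 0.83 for macrophages, 0.53 for stellate cells, 1.46 for neutrophils, 0.62 for lymphocytes, -0.04 for endothelial cells, -0.01 for cholangiocytes, 0.07 for hepatocytes, -0.53 for pericentral and 0.23 for periportal genes. The part of these shifts in the values of Gsta3, Gstt1, Gstt3 and Hpgds was not tested.

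In the LKO livers NAMPT gave 0 of 10 members called by limma, DESeq2 or the quasi-likelihood test, where 0.00711% of all genes were called by limma. Without adjustment 0 members and 1355 of the 14065 genes had a p-value under 0.05. Log2 fold changes ran from -0.35 ± 0.26 (SE) for Gstp2 to 0.37 ± 0.29 (SE) for Gsta2. The pi values are a description here too, since the WD LKO NAMPT libraries belong to the comparison in which Gstp2 was known. Gsta3 had 922, 1142, 1085, 1270 and 1115 CPM in WD LKO EV and 796, 1263, 1334, 1004 and 1198 CPM in WD LKO NAMPT. Its log2 fold change was 0.04, with a 95% interval from -0.27 to 0.35.

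Whether the genotypes differ in their response to NAMPT was tested by the interaction (the effect in LKO minus the effect in WT). It called 0 of the 10 members by limma, DESeq2 or the quasi-likelihood test, where by limma 0.00711% of all genes were called. An unadjusted p-value under 0.05 was found for 2 members and for 2986 of the 14065 genes. The value for Gsta3 was 0.65 ± 0.22 (SE, adjusted p by limma 0.107), and it passed the threshold in 1 of 22 fits without a library, that without WD LKO NAMPT replicate 1 (0.73, adjusted p by limma 0.0494). For Gstp2 it was -0.88 ± 0.33 (SE) and for Gstp1 -0.51 ± 0.28 (SE). The pi values are a description, since the interaction holds the libraries of the comparison in which Gstp2 was known, and for the other members it rests on those libraries too. Among the other family genes Gstt3 had the largest positive value, 1.14 ± 0.29 (SE, adjusted p by limma 0.0707).

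Genotype under the empty vector called 0 of 10 members by limma, DESeq2 or the quasi-likelihood test, where 0.00711% of all genes were called by limma. There were 2 members, and 891 of the 14065 genes, with an unadjusted p-value under 0.05. Gstp1 had 417, 380, 234, 364 and 323 CPM in WD LKO EV. All but replicate 1 lay below every WD WT EV library. The log2 fold change was -0.61 ± 0.18 (SE, adjusted p by limma 0.525), and -0.45 without WD WT EV replicate 8. Gstp2 had 12.1, 12.3, 6.82, 11.02 and 11.3 CPM, and its log2 fold change was -0.67 ± 0.22 (SE, adjusted p by limma 0.601), or -0.45 without WD LKO EV replicate 3. The other 8 members lay between -0.14 (Gstm4) and 0.46 (Gstm2).

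Genotype under NAMPT is the comparison from which Gstp2 was known when the members were listed, so their values in it are a description. Gstp1 ran from 552 to 998 CPM in WD WT NAMPT and had 349, 298, 264, 334 and 236 CPM in WD LKO NAMPT. Gstp2 ran from 19.2 to 36.0 CPM and had 13.1, 6.48, 7.63, 9.94 and 7.19 CPM. For both genes every library labelled LKO lay below every WT library, as in 0.604% of all genes. The log2 fold changes were -1.12 ± 0.21 (SE) for Gstp1 and -1.54 ± 0.24 (SE) for Gstp2. Gsta3 was at 0.61 ± 0.16 (SE), and the other 7 members lay between -0.73 (Gstm3) and 0.51 (Gstm2). Of all genes 4.18% were called higher and 3.78% lower. Without WD LKO NAMPT replicate 2 the pi values were -1.11 and -1.32. Gstt3 rose by 1.48 ± 0.22 (SE, adjusted p by limma 0.00325) and Gstt1 by 0.62 ± 0.12 (SE, adjusted p by limma 0.0141) on the log2 scale, and neither was called without WD LKO NAMPT replicate 2 (adjusted p by limma 0.098 and 0.132). Gstt1 was also not called without WD LKO NAMPT replicate 5 (adjusted p by limma 0.0934) or with only the groups compared (adjusted p by limma 0.0745). Without that replicate 2, limma called 0 of all genes, and 2287 had an unadjusted p-value under 0.05. Gstk1 and Mgst1 also rose and Hpgds fell, but these calls were lost in 5, 7 and 7 of 11 fits without a library, and with 2 surrogate variables the values were 0.33, 0.19 and -0.30. The WD WT NAMPT libraries are shared with the comparison of NAMPT in WT. In the same comparison 3 of 14 macrophage markers fell and 4 of 10 pericentral genes rose, and 1 gene fell in each of the hepatocyte, stellate, neutrophil, lymphocyte, cholangiocyte and periportal lists. Their part in these values was not tested.

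Over the 5 groups Gstp1 averaged 1406 ± 118 CPM (SD, n = 3) in chow WT EV, 728 ± 170 (n = 6) in WD WT NAMPT, 570 ± 258 (n = 6) in WD WT EV, 343 ± 69.9 (n = 5) in WD LKO EV and 296 ± 47.2 (n = 5) in WD LKO NAMPT. Only the step from chow to the next group exceeded the larger SD of both neighbours, and only there did the libraries not overlap. Gstp2 kept the same order, from 42.8 ± 4.10 to 8.87 ± 2.71 CPM. Gstp1 counts per Gstp2 count lay between 31.9 and 34.2 in chow, 28.6 and 39.2 in WD WT EV, at most 31.4 (median 27.2) in WD WT NAMPT, and between 28.5 and 34.5 in WD LKO EV and 26.6 and 46.0 in WD LKO NAMPT. The chow ratios lay above all WD WT NAMPT ratios, and the other pairs of groups overlapped. How many Gstp2 reads came from Gstp1 transcripts was not tested.

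The mean pi share of the members' levels was highest in chow and lowest in the groups labelled LKO. This is a description, since Gstp2 was known to be lower in WD LKO NAMPT than in WD WT NAMPT when the members were listed. Per length, the pi genes held 48.9% of the members' summed RPKM in chow (range 41.0% to 54.0%), 30.8% in WD WT EV (16.5% to 59.0%) and 38.6% in WD WT NAMPT (29.2% to 58.1%). They held 20.6% (13.98% to 24.7%) in WD LKO EV and 17.8% (16.1% to 20.2%) in WD LKO NAMPT. Class mu held 39.4% in chow and 67.5% in WD LKO NAMPT. The mu sum itself had a mean ± SD of 1583 ± 569 RPKM in chow (n = 3) and 1530 ± 216 RPKM in WD LKO NAMPT (n = 5), which differed by less than the SD. Class alpha held between 9.07% and 14.7% on average. Within WD WT EV, replicates 7 and 8 had the highest pi sums and the lowest mu sums.

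**Figure D4:**
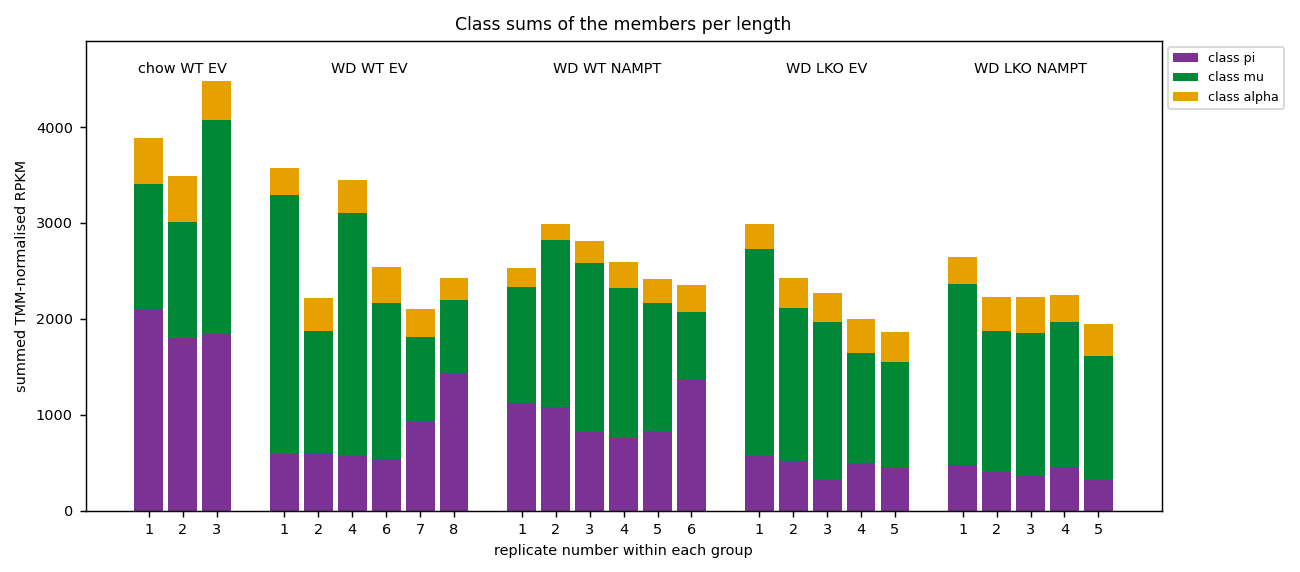
Summed TMM-normalised RPKM (vertical axis, from 0) of class pi (purple), mu (green) and alpha (orange) in every library, with replicate numbers along the horizontal axis and group names above the bars. The purple part averaged 48.9% of the bar in chow and 17.8% in WD LKO NAMPT, and in WD WT EV it ranged from 16.5% to 59.0%.

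Some mu genes varied widely among livers of the same group. Gstm3 had 340, 58.9, 347, 128, 32.3 and 35.7 CPM in WD WT EV replicates 1, 2, 4, 6, 7 and 8, a 10.8-fold range, and spanned 14.8-fold in WD WT NAMPT. Gstm1 was high and low in the same livers, with 3139, 1525, 2878, 1905, 1038 and 901 CPM. With the group means removed, Gstm3 and Gstm1 correlated at r = 0.92 (Spearman's rho 0.94; r = 0.91 without the 2 livers farthest from the median) over the 25 libraries, and Gstm1 and Gstm2 at r = 0.88 (rho 0.84, r = 0.84 without 2). Gstp1 and Gstp2 correlated at r = 0.91 (rho 0.88, r = 0.85 without 2). Gsta1, an alpha gene that is no member and was picked after its values were seen, correlated with Gstm3 at r = 0.96 (rho 0.96, r = 0.94 without 2). Gsta1 ran from 1.89 to 53.1 CPM within WD WT NAMPT. Of its 50-base windows only 9.5% occurred in no other gene, and 75.7% were shared with Gm3776, so its level rests on a small part of its transcript.

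All pi-mu pairs had a negative r, several of them resting largely on 2 livers. Gstp1 had r = -0.57 with Gstm1 (rho -0.40), which was -0.31 without the 2 livers farthest from the median, and so rested in part on them. Gstp2 had r = -0.64 with Gstm2 (rho -0.64), and -0.63 without 2. Without 2 livers Gstp2 with Gstm6 went from -0.49 to -0.10 and Gstp1 with Gstm3 from -0.41 to -0.15. Over all 45 pairs of members the median r was -0.0146, and 4 pairs were above 0.7. These are descriptions over libraries that share scaling, and the part of reads placed in a near-identical gene was not tested.

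**Figure D5:**
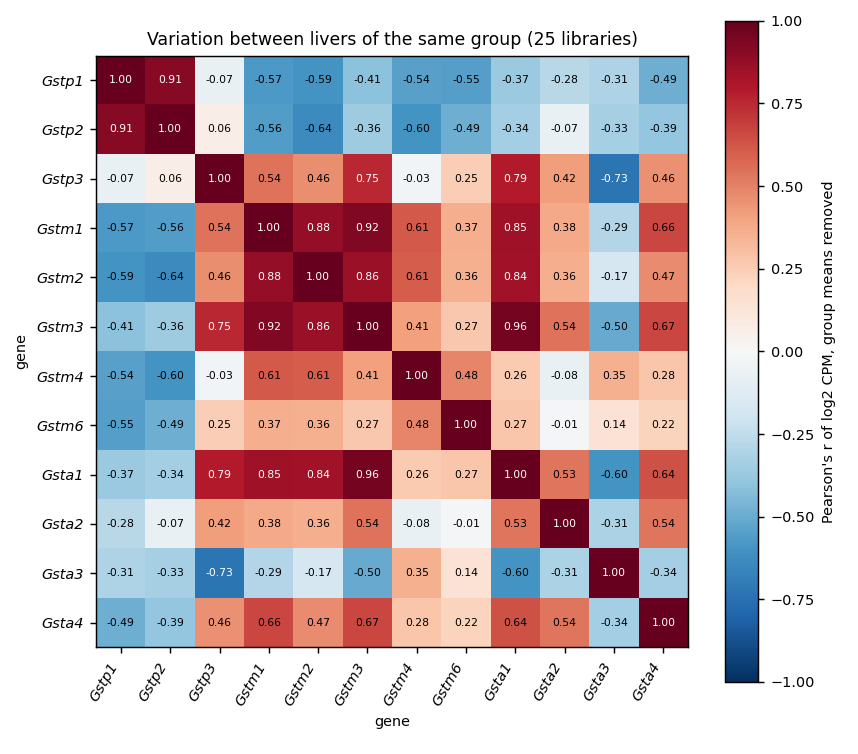
Pearson's r of log2 CPM between the members, Gsta1 and Gstp3 over the 25 libraries after each group's mean was removed (colour and printed value, from -1 in blue to 1 in red). Gstm1, Gstm2, Gstm3 and Gsta1 form a red block with r between 0.84 and 0.96, and Gstp1 and Gstp2 are blue against all 5 mu genes.

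Outside the family, the 3 genes whose log2 CPM was most like that of each class's leading member were taken from 13681 genes, over the 25 libraries with the group differences left in. For Gstp1 they were Serpina1e, an alpha-1-antitrypsin paralog (r = 0.94, rho 0.87, r = 0.92 without 2), Sort1, which encodes sortilin (r = 0.90, rho 0.93, r = 0.88 without 2), and Selenbp2 (r = 0.90, rho 0.87, r = 0.91 without 2). Serpina1e and Selenbp2 were also on the list of genes higher in male liver. Serpina1e had a mean ± SD of 11957 ± 1463 CPM in chow WT EV, 1577 ± 2186 CPM in WD WT EV, 3370 ± 2219 CPM in WD WT NAMPT and 187 ± 102 CPM in WD LKO NAMPT, and its mean was lowest in WD LKO EV, at 119 CPM. For Gsta3 they were Pon1 (r = 0.96, rho 0.93, r = 0.92 without 2), Cd1d1 (r = 0.95, rho 0.88, r = 0.89 without 2) and Cyb5b (r = 0.95, rho 0.90, r = 0.89 without 2). For Gstm1 the values were lower, with 5330417C22Rik (r = 0.82, rho 0.73), Abcd2 (r = 0.80, rho 0.71) and Vegfb (r = 0.79, rho 0.75), and r was 0.72, 0.67 and 0.65 without 2 libraries. With the group means removed, r was 0.80, 0.60 and 0.75 for Serpina1e, Sort1 and Selenbp2 with Gstp1. In the same order as above it was then 0.95, 0.92 and 0.91 for the genes of Gsta3. For those of Gstm1 it was 0.85, 0.81 and 0.81, above the values for Gstp1.

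Among 20 genes higher in male liver, 8 fell and 0 rose on Western diet, with a median log2 fold change of -1.19 against -0.0047 for all genes. Serpina1e and Selenbp2, among those called, were at -4.25 ± 0.88 and -3.28 ± 0.69 (SE). These values are a description, since both were named above for a pattern like that of Gstp1 over the same libraries. With NAMPT in WT 3 of the 20 fell (list median -0.66), among them Elovl3 (-1.66 ± 0.42 SE, adjusted p by limma 0.0155), and for genotype under NAMPT the list median was 0.27. Serpina1e, the 1 gene of the list called there, was at -3.76 ± 0.76 (SE), likewise a description. For genotype under EV the list median was -0.52. Of 17 genes tested that are higher in female liver, 5 rose and 4 fell on Western diet (median 0.38), the median was 0.15 with NAMPT in WT, and 2 rose and 1 fell for genotype under NAMPT.

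Glutathione supply and use gave a mixed picture. Of 21 genes tested, 5 rose and 2 fell on Western diet (median log2 fold change 0.09). Cth, which makes the cysteine that goes into glutathione, fell by 1.78 ± 0.23 on the log2 scale (SE, adjusted p by limma 6.53e-06), from a mean of 742 CPM (SD 248) to 189 CPM (SD 59.5). Chac1, which degrades glutathione, rose by 2.49 ± 0.66 (SE, adjusted p by limma 0.00852) from 0.94 to 4.81 CPM. With NAMPT in WT 2 rose and 2 fell (median -0.04), among the latter Gclc, the catalytic subunit of the rate-limiting step of glutathione synthesis (-0.55 ± 0.16 SE, adjusted p by limma 0.0254). Of the 6 exporters of conjugates, Abcc3 (-0.56 ± 0.17 SE, adjusted p by limma 0.0337) and Abcg2 (-0.52 ± 0.15 SE, adjusted p by limma 0.0265) fell with NAMPT in WT (list median -0.04), and Abcg2 rose on Western diet (list median 0.15).

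Of 24 genes controlled by NRF2, the factor that binds antioxidant response elements, 5 rose and 1 fell on Western diet (median 0.28), and 1 rose and 2 fell with NAMPT in WT (median -0.02). The fall on Western diet was Osgin1 (-1.37 ± 0.29 SE, adjusted p by limma 0.00162), and the rise with NAMPT was Hmox1, the heme-degrading enzyme (0.79 ± 0.19 SE, adjusted p by limma 0.0128). Of 20 genes controlled by the xenobiotic receptors CAR and PXR, 2 rose and 6 fell on Western diet (median -0.13). Among the latter Cyp3a11 went from a mean of 9198 CPM (SD 553) to 2035 CPM (SD 587), with an adjusted p by limma of 1.14e-07. With NAMPT in WT 7 fell and 0 rose (median -0.56), among them Cyp2c37 (-1.74 ± 0.42 SE, adjusted p by limma 0.0137), and 5 of the 20 rose for genotype under NAMPT.

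Under diet, 3 of the 14 other family genes tested fell and 0 rose. Gstt2, of class theta, was at 46.8 CPM (SD 8.08) on chow and 31.2 CPM (SD 4.32) on Western diet, or -0.49 ± 0.17 on the log2 scale (SE, adjusted p by limma 0.0422). Gsto1, of class omega (-0.36 ± 0.11 SE, adjusted p by limma 0.021), and Gstm7, of class mu (-0.31 ± 0.10 SE, adjusted p by limma 0.0304), fell less. The call was lost in 7 of 9 fits without a library for Gstt2, in 4 for Gsto1 and in 3 for Gstm7. Mgst1 had a mean of 2801 CPM (SD 357) on chow and 3950 CPM (SD 633) on Western diet. Its log2 fold change of 0.452 ± 0.165 (SE) was positive and not called (adjusted p by limma 0.0506). On Western diet the macrophage list had 4 genes higher and 0 lower of 14, the stellate list 2 higher and 0 lower of 12, the hepatocyte list 0 higher and 5 lower of 9 tested, and the periportal list 0 higher and 5 lower of 10, and their part in the lower pi and alpha levels was not tested.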

How the data were processed

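Liver RNA of 25 mice was measured by poly-A selected sequencing with single 50-base reads, 1 library per mouse. The authors aligned reads with STAR (2.5.1a) to GRCm38 with Ensembl genes and used featureCounts to count reads that aligned once and to a single gene (1.4.6-p5, versions from the submitters' processing notes). The study's methods name other versions, and use of strand is not given in the sources used here. The authors deposited raw counts, CPM and RPKM for 41388 genes. The deposited CPM and RPKM equalled values recomputed from the counts to within a relative 5.9e-14, so the counts were used. Groups follow the titles, whose NAMPT is the insert also in the series design, although the treatment label says SIRT1. No batch is labelled.

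Genes above 1 CPM in at least 2 libraries were kept and ribosomal RNA left out (14065 genes), after the study's methods. Counts were scaled by TMM (edgeR 4.0.16, factors 0.887 to 1.29) and fitted with voomWithQualityWeights in limma 3.58.1 (R 4.3.3), 1 mean per group over all 25 libraries. P-values were adjusted by Benjamini-Hochberg over all genes kept, and 0.05 was the threshold. The fit was tested on simulated counts. Log2 levels for correlations used a pseudocount of 0.5. Alternatives were the edgeR quasi-likelihood test, DESeq2 1.42.0, no quality weights, library size alone, DESeq2 size factors, no filter, a filter on mean CPM, only the groups compared, a replicate block, 2 surrogate variables (sva 3.50.0) and leaving out each library. Members and lists were chosen with earlier results of these data known. All members were named, with up to 3 called genes of each other list, every called gene of the family, and the 3 genes most like the leading member of each class. No 2 libraries of a group were copies (chi-square per degree of freedom of at least 13.7). Total counts differed by less than 2-fold between libraries, and counting error is small beside the spread between mice at these depths. Replicate numbers come from titles and name different mice.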

Additional observations from a re-analysis of the deposited data

Results flagged for a closer look

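A library stood apart from the rest of its group in 4 of the 40 cases tested (a member in a group of 5 or 6), where chance flags about 1 case in 20. In WD WT EV replicate 8, Gstp2 was at 35.7 CPM, with the next library at 20.0 CPM. Gstp2 was low in WD LKO EV replicate 3, at 6.82 CPM against 11.02 CPM in the nearest library. Gstm3 reached 390 CPM in WD LKO NAMPT replicate 1, where the nearest library had 143 CPM. Gstm6 was at 68.9 CPM in WD WT NAMPT replicate 1, against 53.7 CPM in the nearest library. With all libraries and no replicate block, the NAMPT effect was called different between genotypes for 0 of the members by limma.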

How the results depend on the processing

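For diet, both pi genes, Gsta2 and Gsta4 were called in all 10 alternatives and 9 fits without a library, and the number of members called ran from 4 to 6 in the latter. With NAMPT in WT the count of 1 became 0 with the edgeR quasi-likelihood test, without quality weights, with only the groups compared and with 2 surrogate variables, 2 with DESeq2 and 3 with library size alone. Without a library it ran from 0 (WD WT EV replicate 2, WD WT NAMPT replicate 3) over 2 (WD WT EV replicates 1 and 7, WD WT NAMPT replicate 1) and 3 (WD WT EV replicate 4) to 4 (WD WT EV replicate 8). Genotype under NAMPT is described without a test for the members, and the number of them past the threshold, 3, is no result about them. It ran from 0 to 3 without a library, and it was 0 without WD LKO NAMPT replicate 2, where 0 of all genes were called by limma (2287 with an unadjusted p under 0.05), and without replicate 5, where 2 were. The interaction ran from 0 to 1, the latter without WD LKO NAMPT replicate 1. No log2 fold change of a member or family gene that was followed reversed, 131 calls were lost and 7 were gained over 674 values, and the causes were not tested. Replicate numbers were not taken to pair the mice, since in every comparison some correlation of deviations between same-numbered mice was below 0.1. It ran from -0.19 to 0.35 with NAMPT in WT, where 3 of 4 pairs were above 0.1, and from -0.33 to 0.37 for genotype under EV, and not every mouse correlated best with its own number. With the replicate number as a block, 6 members were called with NAMPT in WT (884 of all genes), among them Gstp1 (0.83, adjusted p by limma 0.00282) and Gstp2 (1.07, adjusted p by limma 0.00242). These pi values are a description, since the WD WT NAMPT libraries are shared with the comparison in which Gstp2 was known. Genotype under EV went to -0.18 for Gstp1 and -0.09 for Gstp2 with the block, not called in either fit. With that block 8 members were called for diet (3842 of all genes), the gains being Gstm1, Gstm2 and Gstm4, and 2 for the interaction (66 of all genes), Gstp1 (-1.005) and Gstp2 (-1.47), which are a description, since the interaction holds the libraries in which Gstp2 was known. Among the members depth was lowest for Gstp2, at 175 to 1248 counts per library, and of the other genes named Hpgds had 12 to 179.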
